A study of Mus musculus with 10 samples.

Results

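ADAM genes encode membrane-anchored proteins that carry a metalloprotease domain and a disintegrin domain (a disintegrin and metalloprotease). They were taken from the mouse testis expression matrix as every gene whose symbol is Adam followed by a number and at most 1 letter, which leaves out the secreted Adamts proteases. This gave 33 of 28125 genes, and all 33 were also present in the matrix of accessible chromatin. The choice used gene names and no measured values, although earlier results of these data were known when it was made.

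In one branch of the family the protease cuts other membrane proteins close to the cell surface, a step called ectodomain shedding that releases growth factors or starts Notch signalling. A second branch is made in male germ cells and placed on the sperm surface, where fertilin (ADAM1 and ADAM2) and ADAM3 are needed for sperm to migrate through the oviduct and bind the egg coat. Several members have lost the residues that hold the catalytic zinc ion and act as adhesion proteins or receptors, among them ADAM22 and ADAM23, the brain receptors for LGI proteins.

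Testes were profiled by simultaneous single-nucleus RNA and ATAC sequencing (BD Rhapsody) in wild-type mice at 11, 17 and 25 dpp (days postpartum) and in Cre/+ and Nfya-CKO mice aged 8 weeks. The cell tables name the 8-week control library CreKO, which was read as the Cre/+ library of the labels. Nfya encodes a subunit of the CCAAT-binding factor NF-Y. In Nfya-CKO mice (Nfya fl/fl, Stra8-Cre, on C57BL/6J) the Cre driver is active in germ cells from spermatogonia to preleptotene, where it removes part of the floxed gene, and Cre/+ mice carry the same driver. There was 1 library per condition and assay, so no difference below has a replicate check and none was tested.

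The authors sorted 45250 nuclei into 13 populations and deposited, for each population, 1 pooled value per gene. The 9 control germ cell populations follow development from undifferentiated spermatogonia (undiff. SpG) through differentiating spermatogonia (diff. SpG), preleptotene (pL), leptotene and zygotene (eL/L/Z, then L/Z/eP), middle and late pachytene (mP/lP) and diplotene (D) spermatocytes to round (RS) and elongating (ES) spermatids. The other 4 are Sertoli cells, other somatic cells, unknown cells and the spermatogonia of Nfya-CKO testes (SpG Nfya-CKO). Libraries held 30227701 to 64967271 UMIs, and populations 99 cells (unknown) to 8107 cells (L/Z/eP). Ages were unevenly spread: 59.3% of pL cells came from 11 dpp, 70.7% of mP/lP cells from 25 dpp and 84.5% of diff. SpG from Cre/+, while 78.8% of other somatic cells came from Nfya-CKO, so stage and age cannot be told apart. Nfya RNA was 0.456 per 10000 UMIs in undiff. SpG and 1.11 in SpG Nfya-CKO, and thus higher in the second population. Cre removes only part of the gene, as given above, and 1 pooled value per gene does not separate its exons. Whether the counted RNA lacked the removed part was therefore not tested. At the protein level, the paper reports loss of NFYA from germ cells by western blotting and by staining of testis sections.

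Libraries of the RNA assay shared cell barcodes. Of the 5152 barcodes of Nfya-CKO, 3813 (74%) were also listed in Cre/+, and the 3 wild-type libraries shared 9.9% to 22.8% of the smaller library's barcodes with each other, whereas a wild-type and an 8-week library shared at most 0.194%. In scATAC, no pair shared more than 0.724%. Of the 3813, 327 were placed in the same population in both libraries, and their median depth was 9129 UMIs in Cre/+ and 1276 in Nfya-CKO. Nuclei with a shared barcode held 85.8% of the UMIs of other somatic cells, 73% of ES, 65.1% of diff. SpG, 59.4% of unknown cells, 53.7% of undiff. SpG, 48.6% of mP/lP, 42.3% of SpG Nfya-CKO, 25.2% of RS and 10.1% of Sertoli cells. Counted as nuclei, the shares in the same order were 70.1%, 59.7%, 49.1%, 40.4%, 32.5%, 23.8%, 35.6%, 8.52% and 6.56%. Since the values are pooled per population, none could be recomputed without these nuclei, and the part of shared barcodes in the results was not tested.

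RNA values are mean UMIs per 10000 UMIs of a cell. Since UMIs were not divided by gene length, levels are compared within a gene, between populations, and not between genes. Intervals given for RNA are exact Poisson 95% intervals of the approximate number of UMIs behind a pooled value, and they cover counting error only.

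The family fell into 21 genes known as sperm proteins, 9 sheddases and 3 genes without protease activity that are best known from the brain (Adam11, Adam22, Adam23). In the longest coding sequence of each gene, the zinc-binding stretch of the protease (histidine, glutamate, histidine, glycine and histidine at fixed spacing) was complete in 20 members and incomplete in 13. It was complete in all 9 sheddases, in none of the 3 brain members, and in 11 of 21 sperm members. The coding bases of this stretch are shown for 8 members to let the intact and the degenerate forms be compared. They were read from the GRCm38 genome through the GENCODE vM21 coding exons, 5′ to 3′ on the coding strand, and capitals mark the codons of those 5 residues that are kept.
Adam9, chr8:24990326-24990358, minus strand: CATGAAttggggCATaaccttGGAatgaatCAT
Adam17, chr12:21336732-21336764, minus strand: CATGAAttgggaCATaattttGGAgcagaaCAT
Adam25, chr8:40754761-40754793, plus strand: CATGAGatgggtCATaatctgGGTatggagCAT
Adam34, chr8:43651554-43651586, minus strand: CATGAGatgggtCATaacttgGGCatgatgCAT
Adam29, chr8:55872374-55872406, minus strand: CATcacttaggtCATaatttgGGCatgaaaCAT
Adam2, chr14:66053841-66053873, minus strand: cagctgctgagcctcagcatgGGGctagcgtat
Adam3, chr8:24707418-24707450, minus strand: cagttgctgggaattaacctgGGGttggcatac
Adam18, chr8:24647848-24647880, minus strand: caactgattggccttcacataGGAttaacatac
Adam9 and Adam17, both sheddases, and Adam25 and Adam34, both expressed in spermatids, kept all 5 residues. Adam29 kept 4 of them and lacked the glutamate. Adam2, Adam3 and Adam18 kept the glycine alone when aligned to Adam9, as did Adam5 and Adam32.

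The sperm members also split by gene structure. In 15 of the 21 the whole coding sequence lies in 1 exon, and the other 6 have 19 to 23 coding exons. The 9 sheddases have 16 to 24 coding exons and the 3 brain members 26 to 30. Of the 15 genes with 1 coding exon, 11 kept the zinc-binding residues, against none of the 6 with several.

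Chromosome 8 held 13 of the 33 members, in 3 tight groups and 1 single gene. Adam18, Adam3, Adam5, Adam32 and the sheddase Adam9 stand in a row on the minus strand at chr8:24602246-25016927 (GRCm38), with gaps of 2469, 1240, 11770 and 806 bp between neighbouring gene bodies. Adam24, Adam25, Adam20 and Adam39 lie on the plus strand from position 40675077 to 40827037, and Adam26b, Adam26a and Adam34 on the minus strand from 43519762 to 43710049. Adam29 lies alone at chr8:55870912-55906948.

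Some of these genes are near copies of each other. The coding bases of Adam25 and Adam39 were 96.1% identical, those of Adam6a and Adam6b 94.9% and those of Adam26a and Adam26b 94.2%. The authors kept only reads that align to 1 place, so levels of these pairs are uncertain, and reads could have been lost from both copies. Adam4 (chr12:81419443-81421946) lies wholly inside Cox16 on the same strand, and Adam1a overlaps Mapkapk5 and Gm42878 on the same strand, so reads of these neighbours may be counted with them. Adam34 overlaps the processed pseudogenes Gm5347 and Gm35629 on the same strand and the antisense transcript Gm45488. Its coding bases were 88.8% identical to those of Adam26b, so its levels are uncertain too. Adam1b lies inside Tmem116, Adam15 overlaps the antisense transcript 4731419I09Rik, and whether the counting used strand is not given in the sources used here.

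RNA of most sperm members was highest from pachytene onwards, and that of 4 of the 5 sheddases with a measurable level earlier. Among the 9 control germ cell populations, 27 of the 33 members reached 0.1 per 10000 UMIs, of which 14 were highest in RS, 3 in mP/lP, 2 in D, 2 in ES, 5 in spermatogonia or pL and 1 in eL/L/Z. Over all 15843 genes reaching the same level, the shares were 22% highest in RS, 11% in mP/lP, 3.29% in D, 14% in ES, 41% in spermatogonia or pL and 8.8% in eL/L/Z or L/Z/eP. None of the 20 sperm members that reached the level was highest before mP/lP, against 4 of the 5 sheddases and both brain members.

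**Figure D1:**
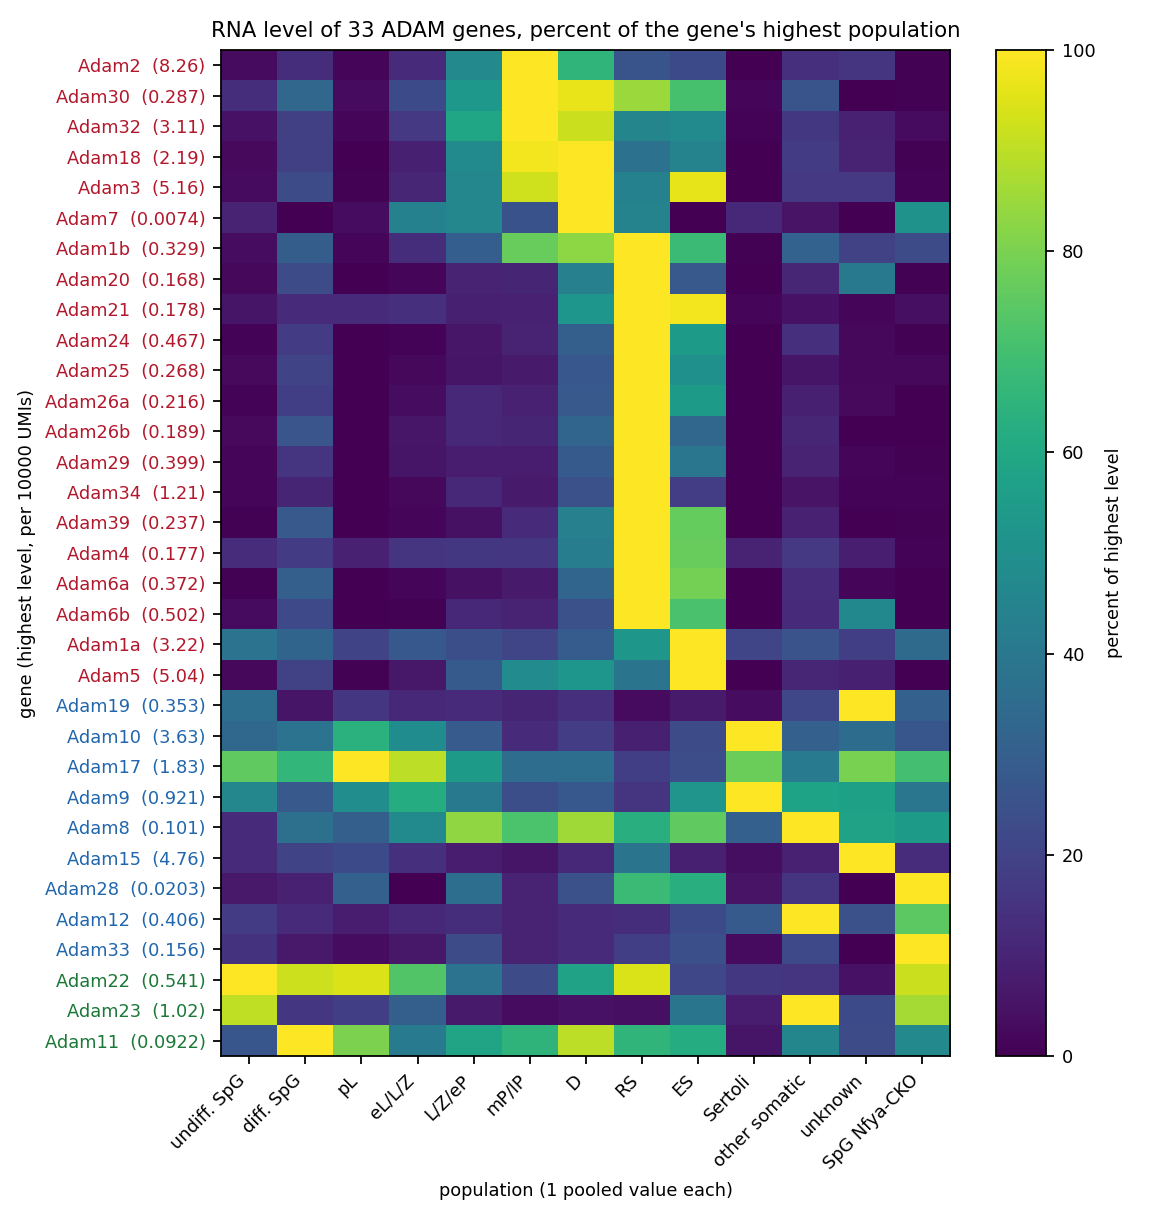
RNA of the 33 ADAM genes (rows) in 13 testis populations (columns), coloured as percent of the gene's own highest population, with that highest level per 10000 UMIs after each name; names are red for sperm members, blue for sheddases and green for the 3 brain members. Adam2, Adam30, Adam32, Adam18 and Adam3 are brightest in mP/lP or D, a block of 13 sperm members is brightest in RS, and Adam9 and Adam10 are brightest in Sertoli cells.

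The 5 sperm members with several coding exons that reached 0.1 rose before most of those with 1 coding exon. In eL/L/Z the 5 genes were at 6.25% to 16.5% of their highest germ cell level. Of the genes with 1 coding exon, Adam1a (27.6%), Adam30 (22.3%), Adam4 (15%), Adam21 (13.5%) and Adam1b (13%) lay within or above this range. Adam4 and Adam21 were still at 15.7% and 9.07% in mP/lP. Adam2, the beta subunit of fertilin, stood at 0.252 per 10000 UMIs in undiff. SpG, 1.08 in diff. SpG, 0.101 in pL, 1.02 in eL/L/Z, 3.90 in L/Z/eP, 8.26 in mP/lP, 5.39 in D, 2.16 in RS and 1.85 in ES. Its RNA was therefore lowest in pL, highest in pachytene, and fell to 26.1% of that level in RS. The mP/lP level rests on about 39702 UMIs, with an interval of 8.18 to 8.34.

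Adam3, needed on sperm for binding to the egg coat, rose from 0.0282 in pL to 0.564 in eL/L/Z, 2.38 in L/Z/eP, 4.79 in mP/lP and 5.16 in D, was 2.26 in RS and stood at 4.96 in ES. Adam5, its neighbour on chromosome 8, was 0.0302 in pL, 1.42 in L/Z/eP, 2.43 in mP/lP, 2.65 in D, 1.94 in RS and 5.04 in ES, so that both genes were higher in ES than in RS. Adam18 reached 2.15 in mP/lP and 2.19 in D, with 0.00776 in pL and 0.825 in RS. Adam32 reached 3.11 in mP/lP and 2.86 in D, with 0.0540 in pL and 1.42 in RS. These 4 genes stand side by side on the minus strand, and their next neighbour Adam9 did not share the pattern: it was 0.451 in pL, 0.220 in mP/lP and 0.254 in D.

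Most of the 15 sperm members with 1 coding exon came later. Of the 15, 13 were highest in RS, 1 in mP/lP (Adam30) and 1 in ES (Adam1a). Adam34, a testase, was 0.0187 per 10000 UMIs in undiff. SpG, 0.124 in diff. SpG, 0.00157 in pL, 0.0250 in eL/L/Z, 0.138 in L/Z/eP, 0.0854 in mP/lP, 0.302 in D, 1.21 in RS and 0.222 in ES. It was thus at 7.07% of its RS level in pachytene, at 25% in diplotene and at 18.4% once spermatids elongated. The RS level rests on about 2594 UMIs (interval 1.16 to 1.26).

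The other testases followed Adam34 into RS and differed in how much remained in ES. Adam24 was 0.0465 in mP/lP, 0.141 in D, 0.467 in RS and 0.255 in ES. Adam25 was 0.0192 in mP/lP, 0.268 in RS and 0.135 in ES, and its near copy Adam39 was 0.0286, 0.237 and 0.181. Adam26a was 0.0199 in mP/lP, 0.216 in RS and 0.118 in ES. Adam26b reached 0.189 and Adam20 0.168 in RS, and both were at or below 33% of that level in ES. Adam39 was at 76.3% in ES, Adam26a at 54.6% and Adam25 at 50.4%.

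The copies Adam6a and Adam6b, whose joint loss impairs male fertility in mice, reached 0.372 and 0.502 in RS and were listed at 0 in pL. Adam29, without an intact zinc-binding stretch, was 0.0302 in mP/lP, 0.399 in RS and 0.157 in ES. Adam4 reached 0.177 and Adam21 0.178 in RS, and Adam21 was at 98.3% of that level in ES.

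Adam1b and Adam30 rose earlier than the other genes with 1 coding exon. Adam1b, which encodes an alpha subunit of fertilin, was already at 77.1% of its RS level of 0.329 in mP/lP. Adam30 was 0.153 in L/Z/eP, 0.287 in mP/lP, 0.278 in D and 0.244 in RS. Adam1a, the other fertilin alpha gene, was read in every population, from 0.592 in unknown cells to 3.22 in ES, with 1.71 in RS. As given above, Adam1a overlaps Mapkapk5 on the same strand.

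The ratio of RS to mP/lP summarises the contrast. On log2(value + 0.1), the 5 genes with several coding exons had ratios of -1.89 (Adam2) to -0.31 (Adam5), with a median of -1.08. The 15 genes with 1 coding exon had ratios of -0.17 (Adam30) to 2.82 (Adam34), with a median of 1.39, and 14 of them were above 0. The ranges of both groups did not overlap, with a narrow gap between Adam5 and Adam30. No share of all genes above 0 is given for this ratio, so the count has no background here. Adam7, a sperm member with several coding exons that did not reach 0.1, is left out here. Its ratio was 0.02, within the range of the genes with 1 coding exon. Gene structure did not divide the rest of the family in the same way, since Adam15, with 23 coding exons, had a ratio of 2.42.

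**Figure D2:**
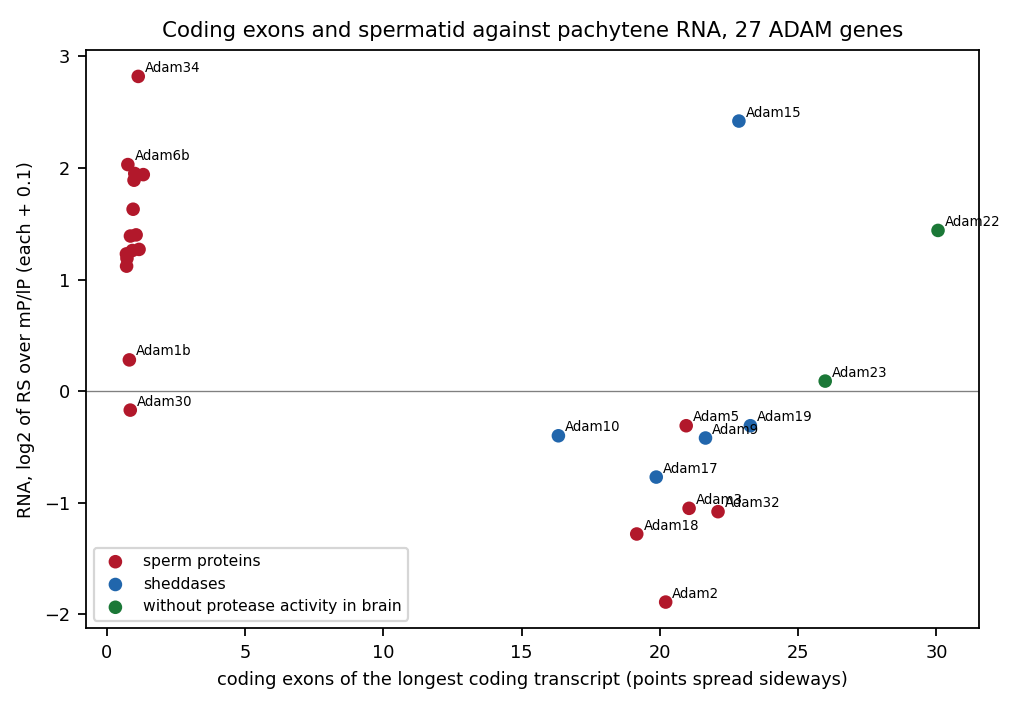
Coding exons of each gene's longest coding sequence (horizontal axis, points spread sideways for visibility) against the log2 ratio of RNA in RS over mP/lP, each with 0.1 added, for the 27 ADAM genes reaching 0.1 per 10000 UMIs in a control germ cell population. Sperm members with 1 coding exon lie at -0.17 or above, those with 19 or more at -0.31 or below, and the sheddase Adam15 lies at 2.42.

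Counted step by step, calls followed both groups. A call of 2-fold was made on log2(value + 0.1), which understates the change of low levels. From pL to eL/L/Z, 13 of the 33 members had a mean of at least 0.05 over the 2 populations, the minimum for a comparison, and 5 were at least 2-fold higher and 0 lower (all genes: 5.17% higher, 0.693% lower). A gene low in 1 of the 2 populations can reach this minimum through the other alone, and the same minimum was used for all genes. At the next step, to L/Z/eP, 5 of 16 were higher and 1 (Adam23) lower, where 6.04% of all genes were higher and 4.4% lower. At both steps the 5 were Adam2, Adam3, Adam5, Adam18 and Adam32. From L/Z/eP to mP/lP, Adam2 was called higher and Adam10 lower of 18 members compared (1.57% and 4.03% of all genes). Adam3 (2.38 and 4.79), Adam18 (1.05 and 2.15) and Adam1b (0.0988 and 0.253) were past 2-fold before 0.1 was added and not after it.

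Spermatid calls came next. From mP/lP to D, Adam34 alone of 23 was higher and none was lower (5.42% and 0.202% of all genes). From D to RS, 28 members were compared, of which 7 were higher and 3 lower, beside 11.8% and 3.41% of all genes. The 7 were Adam34, Adam15, Adam6b, Adam24, Adam29, Adam6a and Adam25, and the 3 were Adam18, Adam2 and Adam3. The median log2 difference of expressed genes at this step was -0.22, and relative to it Adam1a (1.03), Adam26a (1.20) and Adam26b (1.06) also passed 2-fold while Adam3 (-0.94) did not. From RS to ES, 5 of 29 were higher and 3 lower, where 10% of all genes were higher and 11.3% lower. Those higher in ES were Adam3, Adam5, Adam9, Adam10 and Adam23, and those lower were Adam34, Adam15 and Adam22.

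Markers of somatic cells moved with part of this last step. The summed level of the 4 Sertoli cell markers was 0.817 in RS, 6.79 in ES and 30.7 in Sertoli cells, and that of the 4 Leydig cell markers 0.759 in RS and 5.56 in ES. Adam9 and Adam10, higher in ES, were also highest of all populations in Sertoli cells. Adam23, at 0.0431 in RS and 0.398 in ES, was highest in other somatic cells (1.02). The part of somatic RNA in these ES levels was not tested. Adam3 and Adam5 were at 0.00652 and 0.00897 in Sertoli cells and at 0.864 and 0.55 in other somatic cells.

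**Figure D3:**
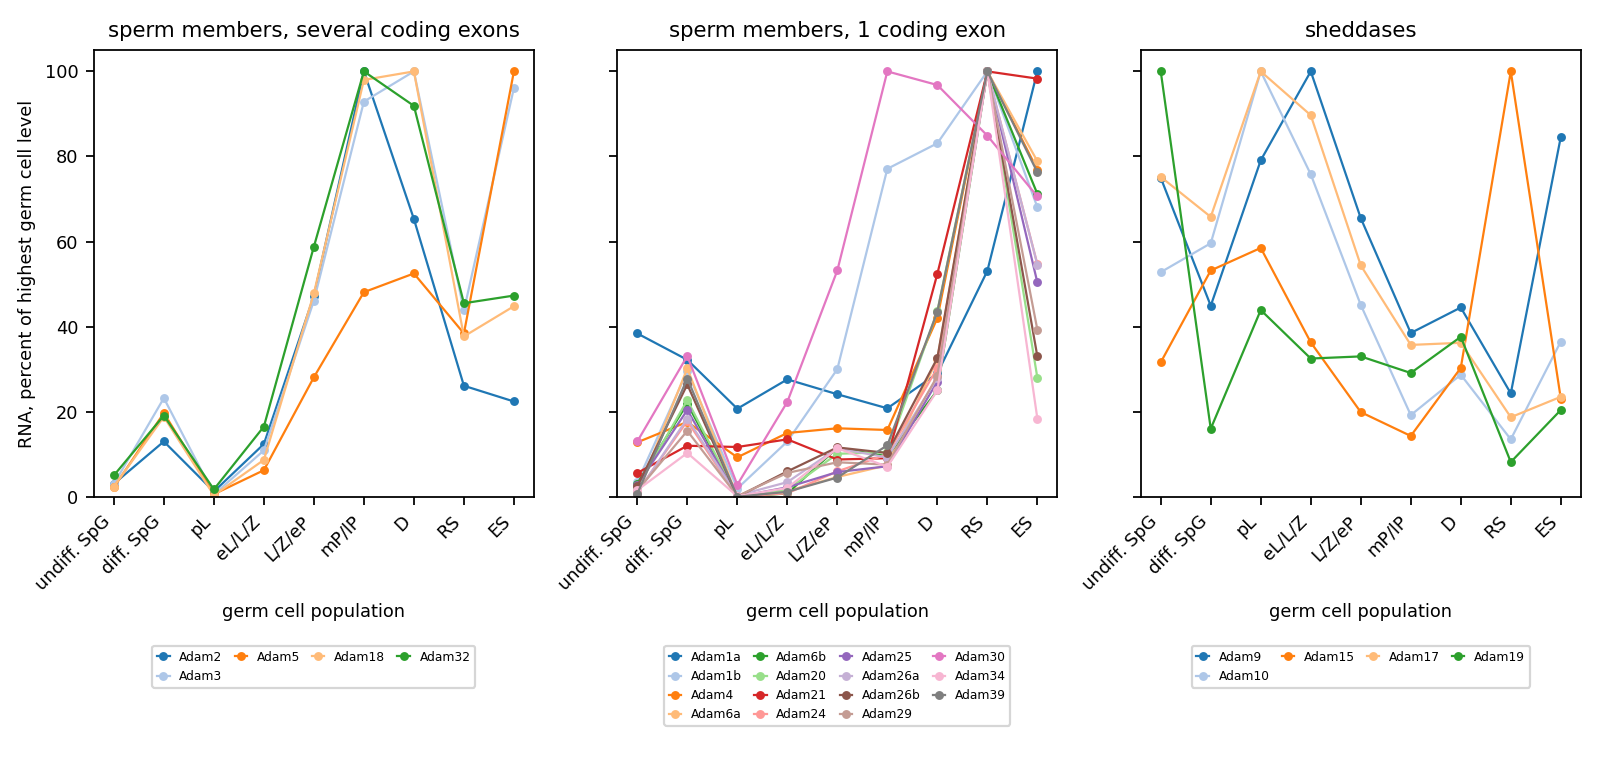
RNA of ADAM genes in the 9 control germ cell populations, in developmental order, as percent of each gene's highest germ cell level, 1 pooled value per point, for sperm members with several coding exons (left), sperm members with 1 coding exon (middle) and sheddases (right). The left group climbs from pL to mP/lP, all of the middle group but Adam1a, Adam1b and Adam30 stay at or below 16.1% up to mP/lP, except in diff. SpG, and peak in RS, and 4 of the 5 sheddases peak in undiff. SpG, pL or eL/L/Z.

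RNA of genes that are highest in late germ cells was also read in populations that precede meiosis or are somatic. From undiff. to diff. SpG, 20 members were compared and 6 were higher (Adam2, Adam3, Adam5, Adam6a, Adam18, Adam32) and 1 lower (Adam23), beside 10.2% and 7.05% of all genes. From diff. SpG to pL, 0 of 18 were higher and 8 lower (1.42% and 12.1% of all genes), all 8 of them sperm members. Of the 8, Adam3, Adam5, Adam6a, Adam6b, Adam18 and Adam34 reached the minimum mean only through diff. SpG, as Adam6a did at the step before. Their direction was thus set by the minimum, which was the same for all genes. Spermatid markers moved with the sperm members: Prm1, which encodes a protamine, was 0.155 in undiff. SpG, 3.94 in diff. SpG, 0.00525 in pL and 40.8 in ES. The summed level of the 4 ES markers was 0.511 in undiff. SpG, 9.88 in diff. SpG, 0.0149 in pL and 4.77 in other somatic cells. In diff. SpG, Adam34 stood at 10.3%, Adam24 at 17.8% and Adam2 at 13% of their highest germ cell level, beside 16.5% for Acrv1, 30.2% for Acr and 9.65% for Prm1. Of the 925 diff. SpG nuclei with a library, 454 had a barcode shared between libraries. The part of spermatid RNA in the diff. SpG values of the sperm members was not tested.

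Of the 5 sheddases that reached 0.1, 3 were highest in spermatogonia or pL, beside the 41% of all genes given above, Adam9 in eL/L/Z and Adam15 in RS. Adam10, which cuts Notch receptors, was 1.22 per 10000 UMIs in undiff. SpG, 1.38 in diff. SpG, 2.32 in pL, 1.76 in eL/L/Z, 1.04 in L/Z/eP, 0.445 in mP/lP, 0.664 in D, 0.312 in RS and 0.846 in ES. It was thus highest in pL and fell to 13.5% of that level in RS. Adam17, which releases TNF and ligands of the EGF receptor, was 1.38 in undiff. SpG, 1.83 in pL, 1.65 in eL/L/Z, 0.655 in mP/lP, 0.343 in RS and 0.431 in ES. Adam9 was 0.428 in undiff. SpG, 0.570 in eL/L/Z and 0.138 in RS. Adam19 was highest of the germ cells in undiff. SpG (0.127) and was 0.0104 in RS.

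Adam15 departed from the other sheddases. It was 0.577 in undiff. SpG and 1.07 in pL, fell to 0.261 in mP/lP, and stood at 1.83 in RS (interval 1.77 to 1.89) before 0.422 in ES. Its antisense neighbour may share these reads, as given above. Adam12 was 0.0310 to 0.0904 in the 9 germ cell populations. Adam8 was at most 0.0865, Adam28 0.0138 and Adam33 0.0378 in any of them. Over all 13 populations Adam8 was highest in other somatic cells (0.101) and Adam28 in SpG Nfya-CKO (0.0203).

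Of the 3 brain members, Adam22 was 0.541 in undiff. SpG, 0.5 in diff. SpG, 0.512 in pL, 0.395 in eL/L/Z, 0.206 in L/Z/eP, 0.125 in mP/lP, 0.312 in D, 0.510 in RS and 0.115 in ES. It therefore had 2 high points, before meiosis and in RS. Adam23 was 0.924 in undiff. SpG and 0.160 in diff. SpG, and was 0.0348 in mP/lP. Adam11 did not exceed 0.0922 (diff. SpG). Adam7, an epididymal member, was at most 0.0074 in any population (D), which rests on about 15 UMIs (interval 0.00412 to 0.0123).

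Somatic cells carried sheddases and Adam23. Adam10 was 3.63 in Sertoli cells and 1.11 in other somatic cells, Adam9 0.921 and 0.535, and Adam17 1.42 and 0.764. Adam12 was 0.115 in Sertoli cells and 0.406 in other somatic cells, and Adam23 0.0768 and 1.02. Of 15 members compared, 1 (Adam10) was at least 2-fold higher in Sertoli cells and 7 were lower, beside 6.8% and 17.8% of all genes. The 7 were Adam12, Adam23 and 5 sperm members (Adam2, Adam3, Adam5, Adam18, Adam32), which moved with spermatid markers: the 4 RS markers summed to 1.52 in other somatic cells and 0.0373 in Sertoli cells. These 5 sperm members reached the minimum mean only through other somatic cells, so their direction was set by the minimum. Sertoli cells came mostly (87.8%) from 11 dpp, before spermatids form, and other somatic cells mostly (78.8%) from Nfya-CKO. Age, genotype, library and cell type therefore cannot be told apart.

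In the 99 unknown cells Adam15 was 4.76 (about 354 UMIs, interval 4.28 to 5.28) and Adam19 0.353, the highest level of both genes in any population. Of these nuclei, 40 had a barcode shared between libraries. The endothelial markers Cdh5 (7.26) and Pecam1 (5.31) were also highest in these cells, against at most 0.265 and 0.224 elsewhere. Markers of other cell types were read there too. The 4 Leydig cell markers summed to 24.7 (214.3 in other somatic cells) and the 4 ES markers to 6.71 (118.3 in ES). Which of the unknown cells carry RNA of Adam15 and Adam19 was not tested.

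Accessibility followed RNA in most sperm members. scATAC values are scaled to a sum of 1000000 over nuclear genes in each population. Whether they come from the window around the start site that the study uses for its coverage tracks is not given in the sources used here. A difference in value between genes is therefore not read as a difference in accessibility. Of the 33 members, 31 reached 5 per 1000000 in a control germ cell population, of which 14 were highest in RS, 4 in mP/lP, 1 in D, 2 in ES, 7 in spermatogonia or pL and 3 in eL/L/Z or L/Z/eP. The shares over all genes were 20.3% in RS, 7.65% in mP/lP, 5.67% in D, 23.5% in ES, 33.6% in spermatogonia or pL and 9.27% in eL/L/Z or L/Z/eP.

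Testase genes had lower values in undiff. SpG than in RS. Adam24 was 2.37 per 1000000 in undiff. SpG, 5.05 in diff. SpG, 0.474 in pL, 7.33 in L/Z/eP, 6.95 in mP/lP, 16.7 in D and 35.2 in RS. Adam26a was 0.693 in undiff. SpG, 3.94 in diff. SpG and 16.9 in RS, and Adam20 0.353, 4.02 and 12.4. Adam34 was 2.33 in undiff. SpG, 8.94 in RS and 18.5 in ES, the last from a population with 124 nuclei in which both RNA and ATAC were read. In the group expressed in pachytene, Adam2 was 14 in undiff. SpG, 9.65 in pL and 47.2 in mP/lP, Adam32 22, 13.5 and 45.4, and Adam18 14, 5.25 and 33.6. All 3 were lower in pL than in undiff. SpG and highest in mP/lP, as in RNA for Adam2 and Adam32. The place of the highest value depends on the scaling: with mitochondrial genes included, the share of which differs between populations, Adam2 and Adam18 were highest in RS and Adam32 in D, and no member was highest in mP/lP.

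Of the sheddases, Adam9 ranged from 109.9 to 174.3 per 1000000 over the 9 germ cell populations, Adam10 from 72.7 to 120.2 and Adam17 from 70.9 to 87.0. Their RNA in RS was 24.3%, 13.5% and 18.7% of its highest germ cell level. Adam12 did not exceed 5.52 in germ cells, Adam28 4.52 and Adam8 15.9, and Adam33 went from 19.6 in undiff. SpG to 1.67 in ES. Adam15 was 59.1 in undiff. SpG and 36.4 in RS, against the direction of its RNA. Adam22 fell from 38.8 in undiff. SpG to 14.8 in RS, although its RNA was nearly level between them. Adam9 and Adam32, whose gene bodies lie 806 bp apart, stood at 116.9 and 13.5 in pL.

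From undiff. SpG to RS, 29 members had a mean of at least 5 per 1000000, and 17 were at least 1.5-fold higher and 5 lower, beside 21.6% and 26.5% of all genes. With mitochondrial genes in the scaling, 22 members had that mean and 10 were higher. Of the 17, 16 were sperm members and 1 was Adam8. Most of these 16 were below 5 in undiff. SpG, such as Adam20 (0.353 and 12.4), and reached the minimum mean only through RS. Their direction was thus set by the minimum, which was the same for all genes. The 5 were Adam15, Adam19, Adam22, Adam23 and Adam33. Across the 9 germ cell populations, which share libraries and differ in depth between assays, Spearman's rho of RNA and scATAC had a median of 0.88 in 20 sperm members, 0.60 in 5 sheddases and 0.35 in 15554 genes. It was 0.90 in Adam10 and 0.80 in Adam17, and 0.27 in Adam30 and 0.05 in Adam9.

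**Figure D4:**
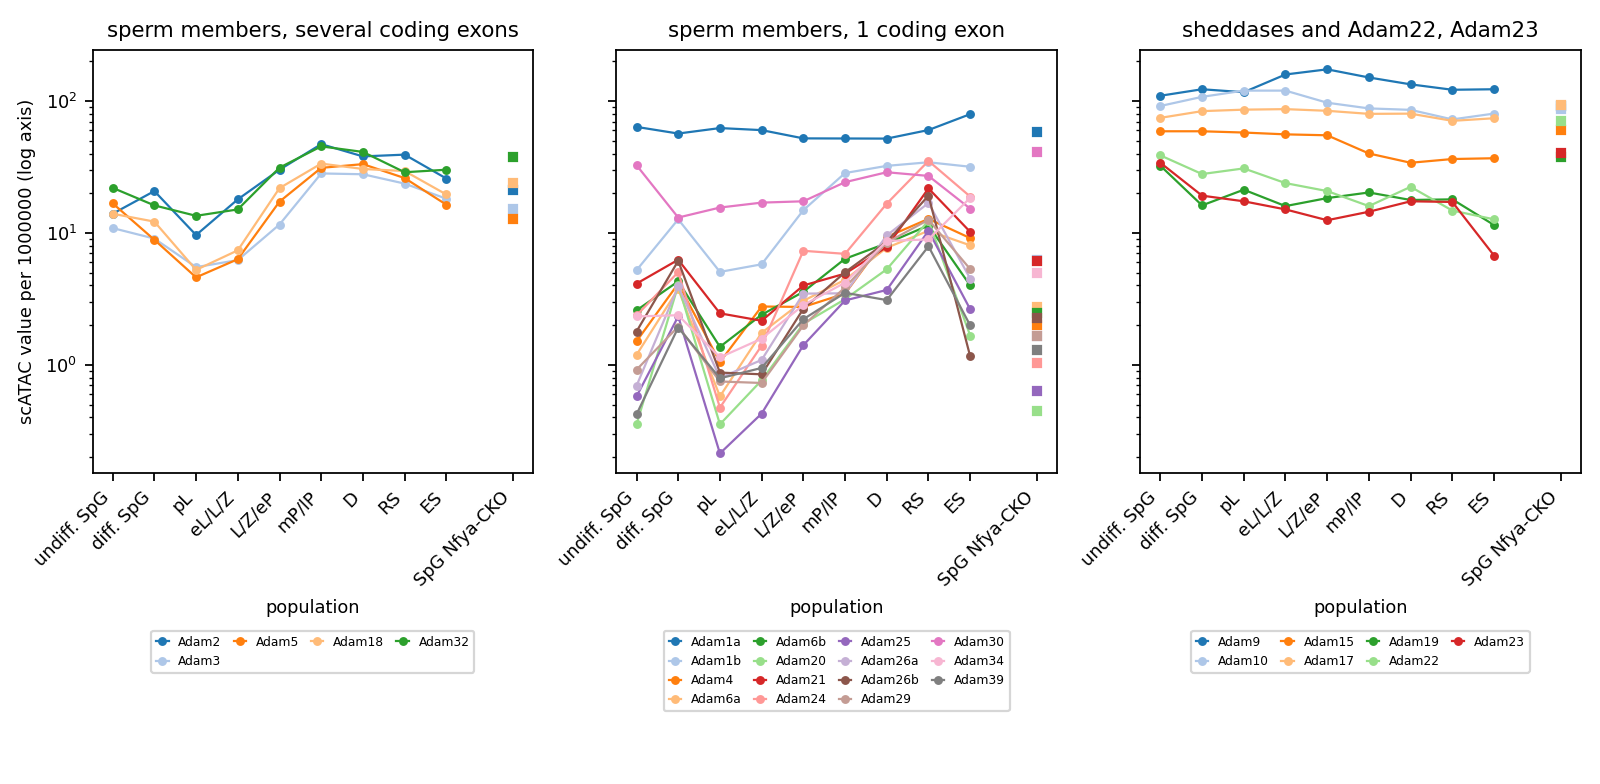
scATAC value (sum of 1000000 over nuclear genes) (log axis) for ADAM genes in the 9 control germ cell populations in developmental order (circles, joined) and in SpG Nfya-CKO (squares), 1 pooled value per point. Sperm members with several coding exons dip in pL and rise to 28.3 to 47.2 in mP/lP, testases rise from near or below 1 in pL towards RS, and Adam9, Adam10 and Adam17 stay at 70.9 or above.

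Promoters of sperm members were poorer in G+C than those of most other members. RefSeq entries of 300 bases (250 before to 50 after the start, GRCm38.p6) matched 17 of the 33 members, with 19 entries since Adam19 has 3. No sperm member with several coding exons had an entry. The 10 sperm members had a G+C content of 35.3% to 51.0% with 0 to 4 CpG dinucleotides, whereas Adam10, Adam15, Adam17, Adam22 and Adam23 had 65.3% to 73.3% with 19 to 32. Adam8 (52.3%, with 6) and the 3 entries of Adam19 (49.3%, 60.3% and 57%, with 5 to 11) lay between, the lowest of Adam19 within the range of the sperm members. The median over all 32851 promoters was 52.7% with 7. NF-Y binds the letters CCAAT, and these were found on either strand in 10 of the 17 members and 10 of the 19 entries, beside 37.4% of all promoters. The promoters of Adam10, Adam20, Adam25 and Adam34 are shown as examples of both kinds, 5′ to 3′ on the gene's strand, with CCAAT, or ATTGG where it lies on the other strand, in capitals.
Adam10, chr9:70678732-70679031, plus strand: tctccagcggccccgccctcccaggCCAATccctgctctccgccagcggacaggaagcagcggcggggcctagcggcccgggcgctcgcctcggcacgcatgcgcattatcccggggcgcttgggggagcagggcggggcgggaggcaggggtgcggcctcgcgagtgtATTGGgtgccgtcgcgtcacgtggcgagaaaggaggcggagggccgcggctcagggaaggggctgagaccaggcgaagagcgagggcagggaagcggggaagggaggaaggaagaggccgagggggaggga
Adam25, chr8:40751958-40752257, plus strand: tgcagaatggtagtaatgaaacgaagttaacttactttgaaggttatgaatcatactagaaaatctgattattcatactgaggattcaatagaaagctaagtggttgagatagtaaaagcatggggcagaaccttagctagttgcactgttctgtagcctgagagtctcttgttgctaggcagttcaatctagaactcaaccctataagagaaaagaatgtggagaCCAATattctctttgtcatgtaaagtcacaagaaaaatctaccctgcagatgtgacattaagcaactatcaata
Adam20, chr8:40793023-40793322, plus strand: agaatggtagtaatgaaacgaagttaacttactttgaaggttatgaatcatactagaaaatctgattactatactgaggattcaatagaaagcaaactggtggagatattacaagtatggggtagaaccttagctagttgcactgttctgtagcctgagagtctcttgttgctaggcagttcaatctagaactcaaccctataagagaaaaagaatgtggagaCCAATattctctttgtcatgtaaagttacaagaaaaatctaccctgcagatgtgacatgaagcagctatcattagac
Adam34, chr8:43665511-43665810, minus strand: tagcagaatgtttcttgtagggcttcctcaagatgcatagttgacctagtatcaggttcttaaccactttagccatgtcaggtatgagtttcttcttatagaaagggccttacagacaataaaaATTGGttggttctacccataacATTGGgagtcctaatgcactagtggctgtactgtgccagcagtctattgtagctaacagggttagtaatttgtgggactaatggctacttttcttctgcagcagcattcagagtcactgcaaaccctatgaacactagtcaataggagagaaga
Adam10 holds the motif 225 and 81 bases before the start and Adam34 126 and 104 bases before it. Adam25 and Adam20 each hold it once, 24 and 27 bases before the start, within promoters that share a run of 88 identical bases. Adam6a and Adam6b share a run of 199 bases without the motif, and no other pair of the 136 shares more than 12. A match is a description of these letters and not a bound site.

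In the SpG Nfya-CKO population, RNA of Adam12 and Adam33 was higher than in control undiff. SpG and that of Adam2 was lower, and the 5 sheddases and 2 brain members given next did not pass 2-fold. Of 14 members compared, 2 were at least 2-fold higher and 1 lower on log2(value + 0.1), beside 4.76% and 3.4% of all genes. All 3 calls ended with a pseudocount of 0.5, a minimum mean of 0.2 or a threshold of 3-fold, and 3 were lower with a pseudocount of 0.05. Controls span 11 dpp to 8 weeks and SpG Nfya-CKO is 1 library of 8 weeks, so age, library and genotype cannot be told apart. Of its 491 nuclei, 175 carried a barcode that was also listed in Cre/+, where 143 of these were placed in diff. SpG, 31 in D and 1 in RS.

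Adam10 was 1.22 in undiff. SpG and 0.971 in SpG Nfya-CKO, Adam17 1.38 and 1.28, Adam9 0.428 and 0.361, Adam15 0.577 and 0.613, and Adam19 0.127 and 0.108. Adam22 was 0.541 and 0.498 and Adam23 0.924 and 0.881. On log2(value + 0.1) these 7 differences lay between -0.30 and 0.08.

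Adam12, an ADAM of muscle and other mesenchymal cells, was 0.0705 (interval 0.0571 to 0.0859) in undiff. SpG and 0.304 (0.270 to 0.340) in SpG Nfya-CKO, a log2 difference of 1.24. Adam33 was 0.0229 (0.0156 to 0.0324) and 0.156 (0.132 to 0.183), a difference of 1.06, and reached the minimum mean only through SpG Nfya-CKO. The 4 Leydig cell markers moved with them, from a summed level of 0.172 to 48.4, against 214.3 in other somatic cells, and the part of Leydig cell RNA in these differences was not tested. Below the minimum mean, Adam8 was 0.0125 (0.00729 to 0.0199) and 0.0551 (0.0414 to 0.0719), and Adam28 0.00137 and 0.0203, from about 2 and 20 UMIs. Adam12 stood at 0.406 in other somatic cells, above its level in SpG Nfya-CKO, and Adam33 at 0.0347, below it.

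Adam2 was 0.252 in undiff. SpG and 0.0474 in SpG Nfya-CKO, a log2 difference of -1.26, which was -0.45 and no call against pL. Adam3 was 0.155 and 0.0466 and Adam5 0.111 and 0.00669, both past 2-fold before 0.1 was added and not after it. Adam32 was 0.156 and 0.0889. Of the 5 sperm members compared (these 4 and Adam1a), none had a log2 difference above 0, and the median was -0.80. Adam2, Adam3 and Adam5 reached the minimum mean of 0.05 only through undiff. SpG, and Adam1b, given below, was higher but did not reach it. The count and the median are thus in part set by the minimum. Against pL, Adam1a (0.66), Adam3 (0.19) and Adam32 (0.30) were above 0. Of the 8 spermatid markers, 6 were compared with the same minimum. Of these, 3 were at least 2-fold lower and none had a difference above 0, with a median of -0.84. Acrv1 was 0.157 and 0.00975. The part of spermatid RNA in the control values was not tested.

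Adam1b went the other way, at 0.0114 and 0.0767, below the minimum mean for a call. Its level in SpG Nfya-CKO was 23.3% of that in RS, where Acrv1 was at 0.136% and Adam2 at 0.574% of their own highest germ cell level.

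**Figure D5:**
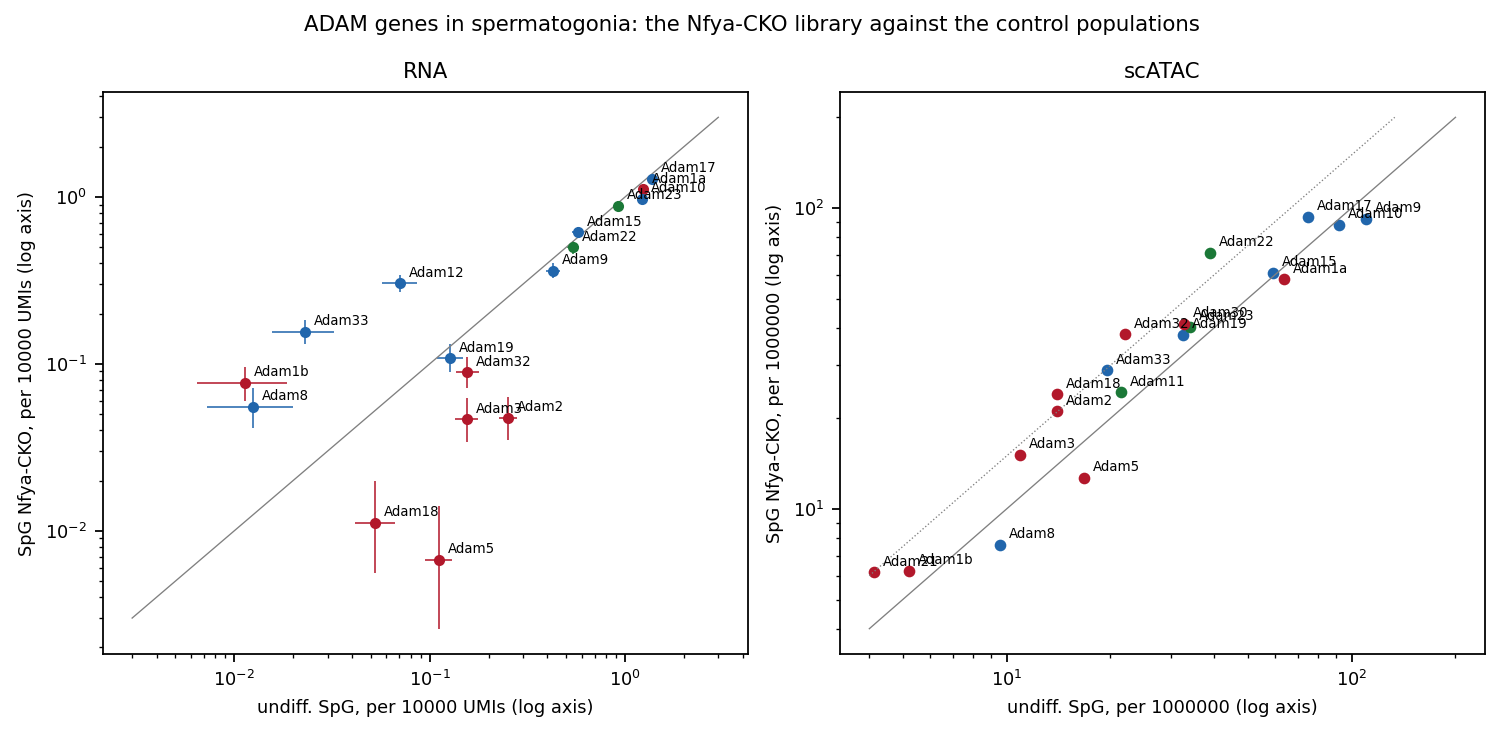
ADAM genes in control undiff. SpG (horizontal axis) against SpG Nfya-CKO (vertical axis), both log axes, for RNA per 10000 UMIs (left, bars are Poisson intervals of the UMIs and cover counting error only) and scATAC per 1000000 (right, dotted line 1.5-fold); red points are sperm members, blue sheddases and green brain members, and solid lines mark equal values. In RNA, Adam2, Adam3, Adam5, Adam18 and Adam32 lie farthest below the line and Adam1b, Adam8, Adam12 and Adam33 farthest above it. In scATAC, Adam22, Adam32, Adam18 and, narrowly, Adam2 lie above the dotted line, which is drawn without a pseudocount.

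In scATAC, 3 of 19 members compared were at least 1.5-fold higher in SpG Nfya-CKO and 0 lower, beside 11.7% and 2.28% of all genes, a share near that of all genes. Adam22 was 38.8 per 1000000 in undiff. SpG and 71.1 in SpG Nfya-CKO, with RNA nearly level. Adam32 was 22 and 38.0, and Adam18 14 and 24.0, while RNA of Adam32 did not pass 2-fold and that of Adam18 (0.0527 and 0.0112) was below the minimum mean. Of the 3 members called in RNA, Adam33 (19.6 and 28.9) did not pass 1.5-fold, Adam2 (14 and 21.1) passed it only before 1 was added to both values, and Adam12 (2.53 and 1.59) was below the minimum mean. Adam3 was 10.9 and 15.1, and Adam5 16.8 and 12.7. Genes of low signal were in general higher in this library: 33.5% of 2379 genes with a mean of 10 to 20 per 1000000 and 9.96% of 7758 genes with a mean of 20 to 50 were at least 1.5-fold higher, beside 0.614% of 7487 genes from 50 to 100. Adam10 was 91.9 and 87.9, and Adam17 74.7 and 93.5.

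Partners of both branches were read in the same cells. Of 14 genes for the maturation of ADAM3 and fertilin, 13 reached 0.1 in a germ cell population, and 5 were highest in ES, 3 in mP/lP, 2 in RS, 1 in eL/L/Z and 2 in spermatogonia or pL, beside 14%, 11%, 22%, 8.8% and 41% of all genes. Clgn, the chaperone calmegin needed for fertilin assembly, was highest in mP/lP (9.12), as Adam2 was, and Tex101 was also highest there (5.45). Calr, a general chaperone, was highest in eL/L/Z (17.1), and Ace, the angiotensin-converting enzyme, in ES (5.73). From D to RS, 6 of 13 were at least 2-fold higher and none lower (Calr3, Pdilt, Ace, Prss37, Prss55, Pmis2), beside 11.8% and 3.41% of all genes. Pcsk4, the proprotein convertase of spermatids, was 1.35 in mP/lP, 5.71 in RS and 4.16 in ES, whereas Furin was 1.24 in pL, 0.149 in RS and 3.63 in Sertoli cells, and Pcsk7 was highest in L/Z/eP at 1.02.

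Of 14 sheddase partners and inhibitors, Tspan14, a tetraspanin that guides ADAM10, was 3.08 in undiff. SpG and 0.102 in RS. The inhibitors Timp3 and Timp2 were highest outside germ cells, at 9.28 in unknown and 8.04 in other somatic cells, and Tspan5 reached 3.88 in Sertoli cells. Among 15 substrates and ligands, Kitl (7.11) and Notch2 (1.97) were highest in Sertoli cells, and Notch1 (3) and Jag1 (1.99) in unknown cells. From RS to ES, 6 of 10 partners and inhibitors compared were at least 2-fold higher and none lower, beside 10% and 11.3% of all genes, in the step where Sertoli and Leydig cell markers were also higher. The 6 were Timp3 (0.135 and 1.04), Tspan17 (0.133 and 0.988), Tspan5 (0.253 and 1.31), Timp2 (2.16 and 6.99), Timp1 (0.00506 and 0.117) and Rhbdf2 (0.0547 and 0.212). Of 12 partners and inhibitors, 5 convertases and 7 substrates and ligands compared, 2 were at least 2-fold higher in SpG Nfya-CKO than in undiff. SpG (Tspan17, 0.143 and 0.5; Timp2, 0.339 and 1.17) and 1 was lower (Tspan33, 0.684 and 0.233), beside 4.76% and 3.4% of all genes. Tspan17 (2.23) and Timp2 (8.04) were highest in other somatic cells, and the 4 Leydig cell markers moved with them, as given above; their part was not tested. Of 8 maturation genes compared, none was higher and 3 were lower, beside the same 4.76% and 3.4%: Clgn (0.991 and 0.375), Calr (9.14 and 4.14) and Tex101 (1.17 and 0.469). Spermatid markers were also lower in this comparison, as given above, and the part of late germ cell RNA in the control values was not tested.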

How the data were processed

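Nuclei of testes from 5 conditions were measured by scRNA-seq and scATAC-seq, with 1 library per condition and assay. The authors aligned reads to mm10 with STAR 2.7.10b (only reads with 1 alignment) and bwa-mem 0.7.12, removed duplicates with the same UMI and coordinates, shifted ATAC ends for the transposase with bedtools 2.27.1, removed doublets with DoubletFinder (RNA) and ArchR 1.0.3 (ATAC), and annotated cells with Seurat 5.2.1 and ArchR. The count of UMIs or fragments per cell was deposited with its library and population. Per assay, the authors also deposited 1 matrix of pooled population values on a natural log scale (the log of 1 plus the mean), a unit found from the values. For coverage tracks, the study merged all fragments of a population, scaled them to the fragments mapped and averaged a window around each start site. Whether the deposited ATAC matrix, which sums to 10000 per population, was made this way is not given in the sources used here. 24 further columns of the cell tables were not used.

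Values were turned back with exp(value) - 1 in Python 3.11.15 (numpy 2.4.6, pandas 2.3.3, scipy 1.17.1). RNA then sums to 10000 per population. ATAC was scaled to 1000000 over nuclear genes, without 13 mitochondrial genes. RNA was compared on log2(value + 0.1) where the mean over both populations reached 0.05, with a call at 2-fold, and ATAC on log2(value + 1) where the mean reached 5, with a call at 1.5-fold. The ratio function was tested on simulated data. No test was run, since pooled values have no replicates. Approximate UMIs behind a value are the value times the UMIs of the population's cells over 10000. Coding exons, positions and coding bases came from GENCODE vM21 on GRCm38, with alignments in biopython 1.88, and promoters from RefSeq GRCm38.p6.

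Members and gene lists were chosen with earlier results of these data known. Every member reaching 0.2 per 10000 in any population was named with its values and every other member with its highest value. Of the other lists, the 3 genes with the highest value and those called in a comparison described for their list were named.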

Additional observations from a re-analysis of the deposited data

How the results depend on the processing

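No paired analysis was possible because each condition is 1 library and populations pool libraries, so leaving out a replicate could not be run either. Of 88 alternatives for the counts, 60 stayed within 1.5 times, and of 268 for single genes 22 changed sign, none of a called value and 18 of them with another control population. Of the 22, 4 were calls in the other direction: RNA of Adam23 (-0.06) was 1.91 against diff. SpG and 1.75 against pL, scATAC of Adam5 (-0.38) 1.28 against pL and scATAC of Adam1b (0.22) -0.92 against diff. SpG. The count of members highest in RS (14) was 3 for genes reaching 0.5. From L/Z/eP to mP/lP, higher members (1) were 3 and 0 with pseudocounts of 0.05 and 0.5, and 7 and 0 at 1.5-fold and 3-fold. From D to RS, higher members (7) were 2 with a pseudocount of 0.5, and 13 and 1 at 1.5-fold and 3-fold, and lower members (3) were 6 and 0 at these folds. In SpG Nfya-CKO, higher RNA (2) was 0 with a pseudocount of 0.5, with a minimum mean of 0.2 and at 3-fold. Lower RNA (1) was 3 with a pseudocount of 0.05 and at 1.5-fold, 0 with a pseudocount of 0.5, with a minimum mean of 0.2 and at 3-fold, and 8 against diff. SpG, and against pL the 1 was Adam10 (-1.17) and not Adam2 (-0.45). Members lower in Sertoli than in other somatic cells (7) were 4 with a pseudocount of 0.5. In scATAC of SpG Nfya-CKO, higher members (3) were 7 and 0 at the smaller and the larger fold tried, 8 against diff. SpG and 10 against pL, and lower members (0) were 1 at the smaller fold and against diff. SpG. Members with scATAC highest in mP/lP (4) were 0 with mitochondrial genes in the scaling. Members higher in RS (17) were 10 with mitochondrial genes in the scaling, where 22 members, not 29, had the minimum mean. Expressed genes shifted by a median of 0.13 from diff. SpG to pL and 0.23 from other somatic to Sertoli cells. Depth limits the unknown cells, where 3 UMIs give 0.0404 per 10000.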
